A study of Mus musculus with 2 samples.

Results

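The *Gimap* genes encode the GTPases of immunity-associated proteins, and their 8 mouse members, *Gimap1*, *Gimap3*, *Gimap4*, *Gimap5*, *Gimap6*, *Gimap7*, *Gimap8* and *Gimap9*, were examined in the CD45+ cells of the twi and WT brain. The members were taken by gene symbol, and all 8 had a row among the 27998 genes counted. The twi mouse (galc-/-) lacks galactosylceramidase, the lysosomal enzyme missing in Krabbe disease, and WT littermates were galc+/+. Both genotypes were on the C57Bl/6 strain, were untreated and were studied at postnatal day 21 (p21). CD45+ cells, which are cells of the hematopoietic lineage, were sorted from hemibrains, and the cells of 2 to 3 animals per genotype went together into a single 10x Genomics library (3′ v2 chemistry), which tags each captured transcript with a unique molecular identifier (UMI).

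GIMAP proteins are small GTP-binding proteins, several of which sit on the membranes of organelles such as mitochondria, the endoplasmic reticulum, lysosomes or lipid droplets. They are made mostly by lymphocytes and are known for keeping resting T and B cells alive. Loss of Gimap5 in rodents empties the periphery of T cells, Gimap1 is needed for mature T and B cells, and Gimap6 takes part in autophagy through the ubiquitin-like protein Gabarapl2.

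Barcodes with at most 15% mitochondrial UMIs were kept, which left 1271 WT and 1207 twi cells with medians of 2222 and 3182 UMIs and totals of 3741477 and 4791200 UMIs. No barcode was shared by the libraries. *Galc*, the mutated gene, gave 4 UMIs in WT and 8 in twi, which does not check the genotype labels because tags at the 3′ end miss the mutated base. Levels are given as CPM, the UMIs of a gene scaled to 1000000 UMIs of the cell class, with exact Poisson intervals at the 95% level, and ratios with exact conditional intervals. Because 1 tag stands for 1 transcript whatever its length, CPM can be set side by side between members, although capture may differ between transcripts. There was 1 library per genotype, so no test was made, and every interval covers counting error alone. Where a class had no UMI of a gene, the limit given is the CPM that 3 UMIs would make.

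Cell classes were set by marker UMIs and not by *Gimap* counts. T cells had at least 2 UMIs of *Cd3d*, *Cd3e* and *Cd3g* together, NK cells fewer than that and at least 2 UMIs of the receptor genes *Ncr1*, *Klrb1c*, *Klre1*, *Klra8* and *Klri2*, B cells at least 3 UMIs of B lineage genes that included *Cd79a*, *Cd79b* and *Ms4a1*, and myeloid cells at least 10 UMIs of 9 myeloid genes. CD8+ T cells were called naive when a set of homing and resting genes that included *Ccr7*, *Lef1*, *Dapl1* and *Igfbp4* outweighed the effector genes *Gzmb*, *Cxcr6*, *Ccl5*, *Nkg7* and *Gzmk*, effector in the opposite case, and cycling with at least 2 UMIs of cell cycle genes. The naive and effector sums lay within 2 UMIs of each other in 24 of 101 such WT cells and 24 of 384 twi cells. Genes outside the gates went with the names in part. *Lck* stood at 531 to 694 CPM in WT CD8+ and CD4+ T cells and at 17.1 CPM in WT B cells. NK cells held it too, at 610 CPM in WT and 540 CPM in twi. *Gzma* stood at 10827 CPM in WT and 8085 CPM in twi NK cells, and *Ebf1* at 3541 and 3022 CPM in B cells. *Cd2* parted T from B cells poorly, at 323 CPM in naive CD8+ T cells and 245 CPM in B cells of WT. In twi it was at 83.6 CPM in γδ T cells and 216 CPM in B cells. NK and myeloid cells of twi shared *Tyrobp* (2776 and 3769 CPM) and *Fcer1g* (3044 and 3335 CPM). The γδ gate rested on 5 of 9 genes, among them *Sox13* and *Il23r*, since the T cell receptor genes chosen had no row among the genes counted. It therefore takes γδ T cells of the IL-17 type and could take other T cells with these genes. *Lck* was low in these cells, at 0 UMIs in the 8 WT cells and 116 CPM in the 42 twi cells. *Thy1*, a further T cell gene outside the gates, was high in them, at 1209 CPM in WT and 1576 CPM in twi. It was at 6.82 and 30.6 CPM in B cells and at 276 and 442 CPM in NK cells.

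All 8 members lie side by side on chromosome 6, between bases 48647234 and 48770851 of GRCm38 (GENCODE vM21), a stretch of 123618 bases. From low to high coordinates they are *Gimap8*, *Gimap9*, *Gimap4*, *Gimap6*, *Gimap7*, *Gimap1*, *Gimap5* and *Gimap3*, all protein coding, with *Gimap6* and *Gimap3* on the minus strand and the other 6 on the plus strand. Neighbouring paralogs can share sequence, so the last 500 exonic bases of each member, where 3′ tags fall, were compared. No run of 50 bases was shared by any pair of members. A read-through gene of the cluster, *Gm28053*, overlaps exons of *Gimap7*, *Gimap1* and *Gimap5* outside these last 500 bases, and it had 1 UMI in WT and 4 in twi.

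Promoters are shown for 4 members whose levels differed most in pattern: *Gimap4* and *Gimap7*, the pair with the largest ratio between effector and naive CD8+ T cells, *Gimap1*, the leading member of γδ T cells, and *Gimap6*, which led in B cells together with *Gimap1*. Each window runs from 250 bases before to 50 bases after the RefSeq start site (GRCm38.p6) and is written 5′ to 3′ on the strand of the gene. Capitals mark the core motifs of factors known in lymphocytes, searched on both strands: RUNX (TGTGGT), ETS (AGGAAG), T-box (GTGTGA) and TCF (TCAAAG). No marked motif overlapped another.
*Gimap4*, chr6:48684328-48684627, plus strand: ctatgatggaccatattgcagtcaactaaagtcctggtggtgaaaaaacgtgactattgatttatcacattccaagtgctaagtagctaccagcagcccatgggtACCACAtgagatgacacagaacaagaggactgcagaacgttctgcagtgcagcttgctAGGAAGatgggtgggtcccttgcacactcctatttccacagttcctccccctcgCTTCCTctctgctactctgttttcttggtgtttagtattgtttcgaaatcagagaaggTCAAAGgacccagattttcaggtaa
*Gimap7*, chr6:48718371-48718670, plus strand: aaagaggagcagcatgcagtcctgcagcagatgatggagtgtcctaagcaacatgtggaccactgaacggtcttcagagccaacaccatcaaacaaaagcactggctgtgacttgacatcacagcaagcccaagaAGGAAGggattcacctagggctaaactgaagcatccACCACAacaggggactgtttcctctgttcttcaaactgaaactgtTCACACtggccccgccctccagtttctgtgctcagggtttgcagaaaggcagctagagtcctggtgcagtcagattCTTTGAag
*Gimap1*, chr6:48738797-48739096, plus strand: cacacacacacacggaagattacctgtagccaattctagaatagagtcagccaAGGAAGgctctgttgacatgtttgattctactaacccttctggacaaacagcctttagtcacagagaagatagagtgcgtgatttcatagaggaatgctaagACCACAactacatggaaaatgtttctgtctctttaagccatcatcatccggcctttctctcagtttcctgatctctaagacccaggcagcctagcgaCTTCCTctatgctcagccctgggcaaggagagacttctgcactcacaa
*Gimap6*, chr6:48708195-48708494, minus strand: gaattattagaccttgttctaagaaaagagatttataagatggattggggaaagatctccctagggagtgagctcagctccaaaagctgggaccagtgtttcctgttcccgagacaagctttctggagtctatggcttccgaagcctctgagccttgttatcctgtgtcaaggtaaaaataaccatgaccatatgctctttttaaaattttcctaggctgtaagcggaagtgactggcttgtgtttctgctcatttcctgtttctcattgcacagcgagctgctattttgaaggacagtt

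The *Gimap7* window held all 4 motifs, the *Gimap4* window all but the T-box core, and the *Gimap1* window the RUNX and ETS cores. The *Gimap6* window held none of these exact letters, though it held CGGAAG, which is close to the ETS letters searched. Other spellings of the cores were not searched. Over the 9 windows of the 8 members (*Gimap8* has a pair of start sites), the RUNX core was in 3, the ETS core in 7, the T-box core in 3 and the TCF core in 2. The *Gimap8* windows overlap and hold the same T-box sites, so the T-box count comes from *Gimap8* and *Gimap7* alone. Among all 32851 promoters of the same length, 16.8% held the RUNX core, 35.4% the ETS core, 14.5% the T-box core and 16% the TCF core. A match is a description of letters and does not show that a factor binds.

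Summed over the family, the T and NK cell classes stood far above B cells taken as a single class, and B cells above myeloid cells, in both libraries. NK cells were highest among the 8 classes in WT, with 3281 CPM (95% interval 3048 to 3527, 737 UMIs in 78 cells), ahead of effector CD8+ T cells with 2426 CPM (2182 to 2690, 38 cells) and CD4+ T cells with 2415 CPM (2170 to 2680, 45 cells). Cycling CD8+ T cells had 2107 CPM (1780 to 2476, 8 cells), naive CD8+ T cells 1727 CPM (1552 to 1917, 58 cells) and γδ T cells 1674 CPM (1173 to 2318, 8 cells). Apart from the step between NK cells and the next class, neighbours in this order had overlapping intervals. Ribosomal protein genes took 21.1% of the UMIs of NK cells and 35.8% of those of effector cells in WT (24.2% and 33% in twi). The order of the classes in either library was not recomputed without these genes. WT B cells followed with 771 CPM (721 to 823, 555 cells), and myeloid cells were last with 49 CPM (36.3 to 64.5, 281 cells).

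In twi, effector CD8+ T cells at 2888 CPM (2800 to 2978, 4105 UMIs in 318 cells) and NK cells at 2834 CPM (2639 to 3040, 76 cells) shared the top. CD4+ T cells had 2539 CPM (2339 to 2752, 68 cells) and cycling CD8+ T cells 2250 CPM (2098 to 2411, 44 cells). Naive CD8+ T cells at 1833 CPM (1663 to 2016, 62 cells) and γδ T cells at 1795 CPM (1590 to 2018, 42 cells) were lowest among T cells, and their intervals did not reach that of cycling cells. B cells had 1108 CPM (1010 to 1212, 167 cells) and myeloid cells 68.1 CPM (48.7 to 92.8, 125 cells). T cells with neither *Cd8* nor *Cd4* UMIs nor the γδ genes, or with both *Cd8* and *Cd4*, stood at 2936 CPM in WT and 3338 CPM in twi.

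**Figure D1:**
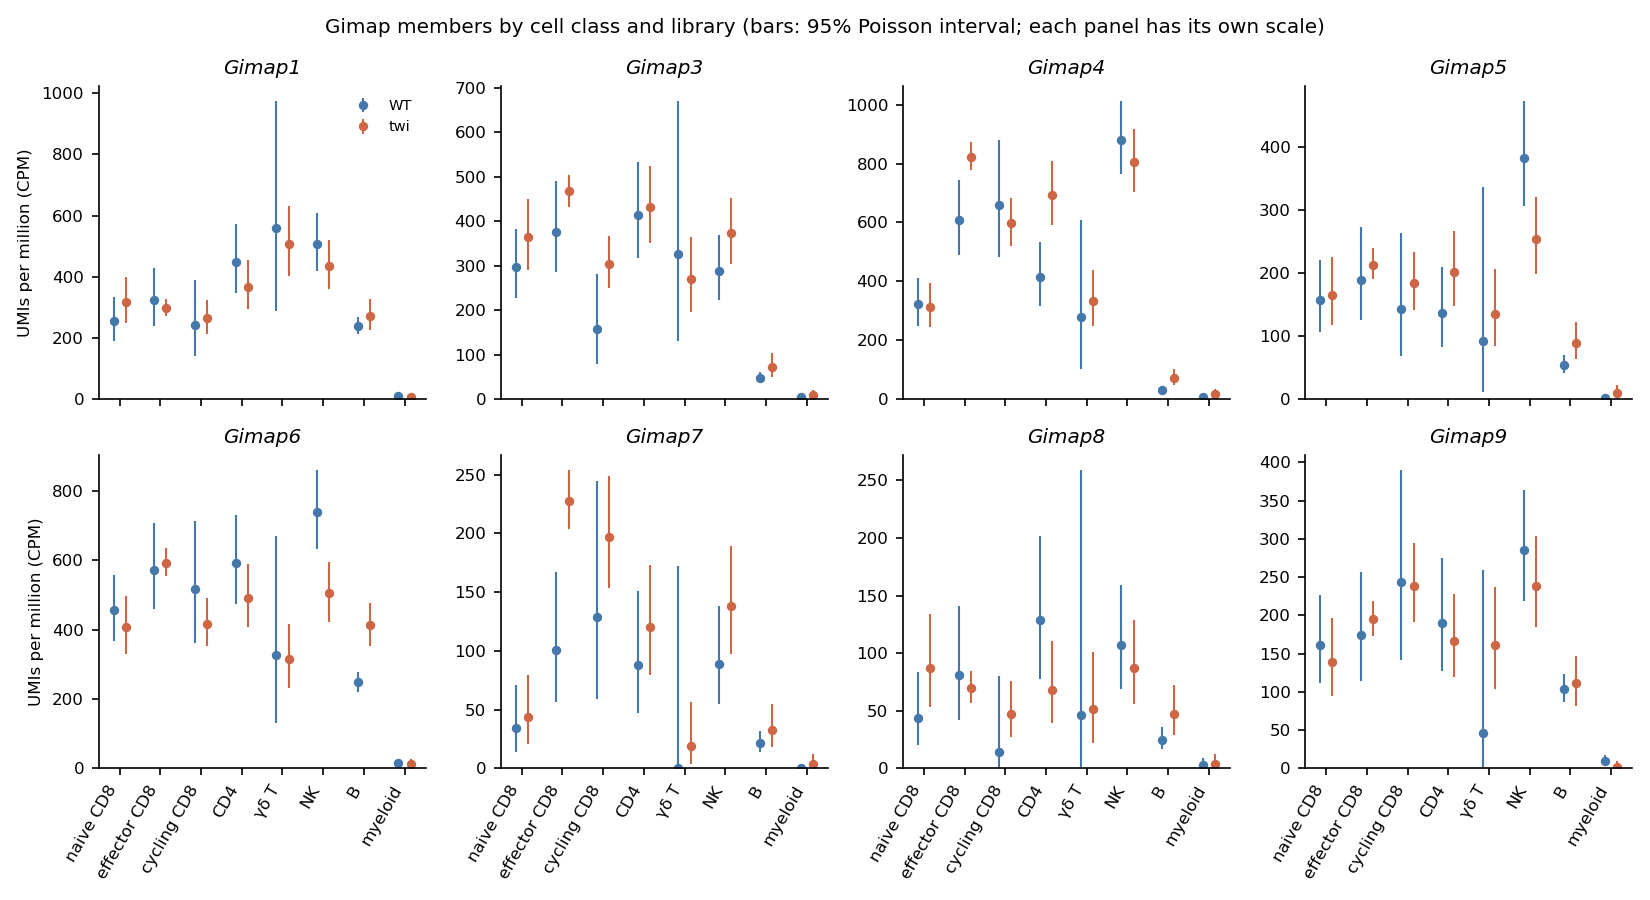
Level of each *Gimap* member (CPM, own scale per panel) in 8 cell classes of the WT (blue) and twi (orange) libraries, with 95% Poisson intervals. *Gimap4* and *Gimap7* are higher in effector than in naive CD8+ T cells, *Gimap1* in B cells is near the CPM of naive CD8+ T cells, and all members are near 0 in myeloid cells.

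Nearly every T or NK cell carried a *Gimap* UMI. The share was 98.3% of naive and 97.4% of effector CD8+ T cells in WT, and 98.4% and 100% in twi, at median depths between 3458 and 4126.5 UMIs. Myeloid cells, which should make little of the family, gave 14.9% in WT (median depth 2707 UMIs) and 27.2% in twi (median depth 3600 UMIs). With each cell thinned to 1000 UMIs, the shares were 84.5% and 89.2% of naive and effector cells in WT, 83.9% and 92% in twi, and 5.56% and 7.26% of myeloid cells in WT and twi. Among myeloid cells, neutrophils had 52.6 and 87.2 CPM, and the cells with C1q genes, which include microglia, had 118 CPM from 8 UMIs in WT and 65.3 CPM from 6 UMIs in twi. *Gimap7* had no UMI in the 281 WT myeloid cells, which allows up to 2.94 CPM, and 2 UMIs in the 125 twi cells.

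The members were not equal in level. *Gimap4*, whose protein takes part in the timing of T cell death, had the most UMIs over both libraries (3534), and *Gimap6* followed with 3235. *Gimap3*, a close paralog of *Gimap5*, had 2233 UMIs, *Gimap1* had 2177, *Gimap9* 1176 and *Gimap5* 1136. *Gimap7*, whose protein pairs with other GIMAPs to switch on their GTPase activity, had 807 UMIs, and *Gimap8*, the longest member with several GTPase domains, had 447.

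Effector CD8+ T cells carried more *Gimap* UMIs than naive CD8+ T cells, and *Gimap4* and *Gimap7* differed most. The family stood at 1833 CPM in naive and 2888 CPM in effector cells of the twi library, a ratio of 1.58 (1.43 to 1.75). In WT the levels were 1727 and 2426 CPM, a ratio of 1.40 (1.21 to 1.63). Naive cells had more of their UMIs in ribosomal protein genes than effector cells (39.4% against 35.8% in WT, 38.2% against 33% in twi), and with mitochondrial and ribosomal genes out of the totals the family ratio was 1.43 in twi and 1.32 in WT. Without *Gimap4* the twi ratio was 1.36 (1.21 to 1.52). At 1000 UMIs per cell, effector cells had a mean of 2.97 family UMIs and naive cells 1.85 in twi, and 2.46 and 1.74 in WT.

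*Gimap4* was at 312 CPM in naive and 823 CPM in effector cells of the twi library, from 72 and 1170 UMIs, a ratio of 2.64 (2.08 to 3.40). In WT it was at 323 and 607 CPM, a ratio of 1.88 (1.35 to 2.62). The naive levels of the libraries were alike within counting error, with a twi over WT ratio of 0.966 (0.682 to 1.37). At 1000 UMIs per cell, 51.9% of twi effector cells and 21% of twi naive cells carried *Gimap4*, against 2.42% of twi myeloid cells, and the ratio was 3.93 (2.26 to 7.49). Where a naive cell could hold no effector UMI and an effector cell no naive UMI, the twi ratio of *Gimap4* was 5.95 on few UMIs (2.02 to 28.9).

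*Gimap7* had the largest ratio of the family. It was at 43.3 CPM in twi naive cells (10 UMIs) and 228 CPM in twi effector cells (324 UMIs), a ratio of 5.26 (2.82 to 11.1). A *Gimap7* UMI was found in 8 of 62 naive cells and in 169 of 318 effector cells of the twi library, and 19.4% of effector against 6.45% of naive cells had one at 1000 UMIs per cell. WT effector cells had 101 CPM from 15 UMIs in 7 cells and WT naive cells 34.3 CPM from 7 UMIs in 5 cells, a ratio of 2.95 (1.13 to 8.56). This WT value rests on few counts, and at 1000 UMIs per cell it turned to 0.523 (0.00995 to 6.51).

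The other 6 members differed less. *Gimap6* was at 407 and 592 CPM in naive and effector cells of twi, a ratio of 1.45 (1.17 to 1.82), and was at 455 and 573 CPM in WT, a ratio of 1.26 (0.927 to 1.71). *Gimap3* was at 364 and 468 CPM in twi, a ratio of 1.29 (1.02 to 1.63) that was 0.707 (0.417 to 1.22) among barcodes with Y-linked UMIs and no *Xist*, and at 298 and 377 CPM in WT, a ratio of 1.26 (0.864 to 1.85). *Gimap1*, *Gimap5*, *Gimap8* and *Gimap9* had intervals that included 1 in both libraries. Their ratios in twi ran from 0.804 for *Gimap8* through 0.945 for *Gimap1* and 1.29 for *Gimap5* to 1.41 for *Gimap9*. In WT *Gimap8* was on the other side, at 1.84 (0.71 to 4.94) from 12 and 9 UMIs.

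**Figure D2:**
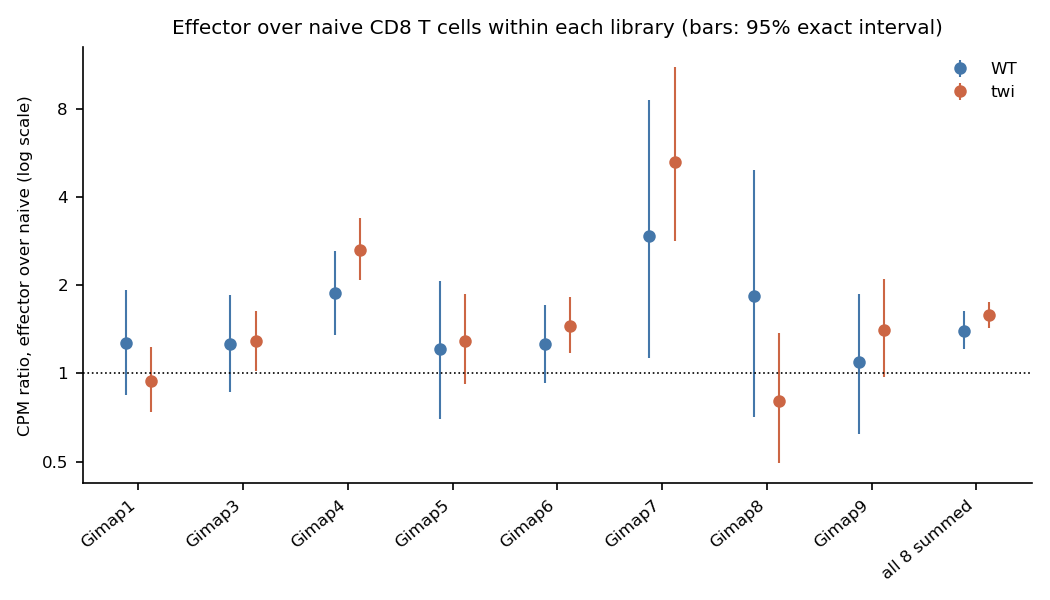
Ratio of CPM in effector over naive CD8+ T cells (log axis) for each *Gimap* member and for the sum of all 8, in the WT (blue) and twi (orange) libraries, with 95% exact intervals. *Gimap7* (5.26 in twi) and *Gimap4* (2.64 in twi) lie above the other members, and *Gimap1* and *Gimap8* lie near or below 1 in twi.

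A difference of at least 1.5-fold, among genes with 20 or more UMIs over both groups, was met upwards by 2 members in twi (*Gimap4* and *Gimap7*) and 3 in WT (*Gimap4*, *Gimap7* and *Gimap8*). Of all genes measured so, 22.6% were higher in twi effector cells and 16.6% in WT effector cells. No member was lower by this rule, against 15% and 11.5% of all genes. The median ratio of the members was 1.33 in twi and 1.27 in WT, and that of all genes 1.04 and 1.03. With a minimum of 50 UMIs, or with a limit of 2-fold, the WT count was 1.

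Effector cells of twi with many and few UMIs of 10 interferon-induced genes were set side by side. The family stood at 2906 CPM in the 117 cells with at least 40 such UMIs per 10000 and 2770 CPM in the 96 cells with under 10, with 105 cells between them, a ratio of 1.05 (0.971 to 1.13). *Gimap7* was at 236 and 175 CPM, a ratio of 1.35 (1.00 to 1.82), *Gimap4* at 859 and 743 CPM, a ratio of 1.16 (0.997 to 1.34), and *Gimap6* was lower in the interferon-high cells, at 540 against 666 CPM, a ratio of 0.81 (0.682 to 0.961). Only *Gimap8*, at 1.51 (0.92 to 2.52), passed 1.5-fold upwards, as did 15.2% of all genes, and none was lower, against 11%. Interferon-low effector cells alone still gave a family ratio of 1.51 (1.35 to 1.69) over naive cells.

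Cycling CD8+ T cells of the twi library had less of the family than effector cells, at 2250 against 2888 CPM, a ratio of 0.779 (0.722 to 0.84). *Gimap3* had the lowest ratio, at 303 against 468 CPM (0.648, 0.524 to 0.795), followed by *Gimap6* at 417 against 592 CPM (0.704, 0.588 to 0.839) and *Gimap4* at 598 against 823 CPM (0.727, 0.625 to 0.841). *Gimap7* was at 197 against 228 CPM (0.866, 0.66 to 1.12) and *Gimap9* was at 239 against 195 CPM (1.23, 0.952 to 1.57). By the 1.5-fold rule 1 member, *Gimap3*, was lower, against 14.3% of all genes, and none higher, against 19.8%. These cells were deeper (median 6389.5 UMIs) than effector cells (4126.5 UMIs), and at 1000 UMIs per cell, where each cell weighs the same, the mean family count was 2.91 against 2.97. Against naive cells, cycling cells had *Gimap7* at 4.56-fold (2.34 to 9.91) and *Gimap4* at 1.92-fold (1.46 to 2.54), 2 of the 3 members past 1.5-fold upwards where 32.6% of all genes were, and *Gimap8* on the other side at 0.546 (0.268 to 1.1), where 13.1% were.

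CD4+ T cells had a higher family level than naive CD8+ T cells in both libraries. The ratio was 1.40 (1.2 to 1.62) in WT and 1.39 (1.22 to 1.57) in twi, where the CD4+ level of 2539 CPM (2339 to 2752) lay below the 2888 CPM (2800 to 2978) of effector CD8+ T cells. In twi *Gimap4* (693 CPM, 2.22-fold, 1.67 to 2.97) and *Gimap7* (120 CPM, 2.76-fold, 1.30 to 6.37) had intervals above 1, and they were the 2 members past 1.5-fold, against 23.4% of all genes, with none lower, against 7.71%. In WT *Gimap1* (449 CPM, 1.76-fold, 1.21 to 2.59) and *Gimap8* (129 CPM, 2.93-fold, 1.27 to 7.37) were the members whose intervals lay above 1, and 3 members with *Gimap7* passed 1.5-fold, against 24.4% of all genes, with none lower, against 7.48%. *Gimap4* in CD4+ T cells was at 415 CPM in WT and 693 CPM in twi, a ratio of 1.67 (1.24 to 2.28).

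γδ T cells differed from effector CD8+ T cells upwards in *Gimap1* and downwards in *Gimap7*. In twi *Gimap1* had 508 CPM in γδ T cells and 299 CPM in effector CD8+ T cells, a ratio of 1.70 (1.32 to 2.17), and made up 28.3% of the family UMIs of the class (23.1 to 34%) against 10.4% (9.44 to 11.3%). *Gimap7* had 19.3 CPM, from 3 UMIs all in 1 of 42 cells, against 228 CPM, a ratio of 0.0847 (0.0174 to 0.25). *Gimap4* was at 334 against 823 CPM, a ratio of 0.406 (0.302 to 0.537). Other classes of twi came near the γδ levels with overlapping intervals, *Gimap1* at 508 CPM (402 to 633) in γδ T cells and 435 CPM (361 to 520) in NK cells, and *Gimap7* at 19.3 CPM (3.98 to 56.4) in γδ T cells and 43.3 CPM (20.8 to 79.7) in naive CD8+ T cells.

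Over effector CD8+ T cells, 5 members were lower by the 1.5-fold rule in γδ T cells (*Gimap3*, *Gimap4*, *Gimap5*, *Gimap6* and *Gimap7*) against 15% of all genes, and 1, *Gimap1*, was higher, against 30%. Over CD4+ T cells 4 members were lower (*Gimap3*, *Gimap4*, *Gimap6* and *Gimap7*), against 14.1% of all genes, none was higher, against 24.7%, and the family ratio was 0.707 (0.611 to 0.816). The 8 WT γδ T cells had 36 family UMIs, of which 12 were *Gimap1* and none *Gimap7*, which allows up to 140 CPM of *Gimap7*, so the difference was not detectable at the depth of the WT cells.

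By CPM of all UMIs, NK cells carried the family above the level of effector CD8+ T cells in WT and near it in twi. The ratio was 1.35 (1.19 to 1.54) in WT, at 3281 against 2426 CPM, and 0.981 (0.908 to 1.06) in twi, at 2834 against 2888 CPM. Ribosomal protein genes took 21.1% of the UMIs of NK cells and 35.8% of those of effector cells in WT. In twi the shares were 24.2% and 33%, and these ratios were not recomputed without such genes. The median ratio of the members was 1.37 in WT and 1.09 in twi, and that of all genes 1.21 and 1.14. *Gimap1* was higher in NK cells in both libraries, at 508 against 324 CPM in WT (1.57, 1.11 to 2.25) and 435 against 299 CPM in twi (1.45, 1.18 to 1.79). *Gimap5* was at 383 against 189 CPM in WT (2.03, 1.31 to 3.23) and at 254 against 213 CPM in twi (1.19, 0.904 to 1.55). *Gimap3* was below the effector level, at 289 against 377 CPM in WT and 373 against 468 CPM in twi, where the ratio was 0.798 (0.642 to 0.983). *Gimap7* was at 89 against 101 CPM in WT (0.881, 0.429 to 1.85) and at 138 against 228 CPM in twi (0.604, 0.42 to 0.847).

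By the 1.5-fold rule 3 members were higher in WT NK cells than in WT effector CD8+ T cells, where 33.8% of all genes were, and none in twi, where 25.8% were. In twi 1 member was lower, against 13% of all genes, and in WT none, against 13.5%. Against naive CD8+ T cells, *Gimap4* in NK cells was 2.73-fold (2.06 to 3.66) in WT and 2.58-fold (1.97 to 3.41) in twi. Of the members, 7 in WT and 4 in twi were past 1.5-fold upwards in that comparison, against 39.1% and 34.2% of all genes, and none was lower, against 13.2% and 12.7%.

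B cells used a different mixture of members from T and NK cells. *Gimap1*, *Gimap6* and *Gimap9* together gave 77% of the family UMIs of WT B cells (74.1 to 79.7%) and 71.8% in twi (67.5 to 75.8%), against 50.4% and 47% in naive CD8+ T cells. *Gimap3*, *Gimap4* and *Gimap7* gave 12.7% in WT (10.6 to 15.1%) and 15.9% in twi (12.7 to 19.5%), against 38% and 39.2%. The smaller share did not hold for *Gimap7* alone. Its B over naive ratios, 0.622 (0.262 to 1.7) in WT and 0.76 (0.314 to 1.91) in twi, were above the family's 0.446 and 0.604. *Gimap5*, outside these groups, had ratios of 0.348 (0.225 to 0.551) in WT and 0.543 (0.337 to 0.874) in twi. By CPM of all UMIs, *Gimap1* was alike in B cells and naive CD8+ T cells within counting error. It was at 240 against 254 CPM in WT (0.945, 0.701 to 1.30) and 273 against 316 CPM in twi (0.862, 0.638 to 1.17). *Gimap4* was at 29.8 against 323 CPM in WT (0.0924, 0.0595 to 0.141) and 70.6 against 312 CPM in twi (0.226, 0.143 to 0.351), and *Gimap3* at 46.9 against 298 CPM in WT (0.157, 0.107 to 0.23) and 72.9 against 364 CPM in twi (0.2, 0.128 to 0.306).

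Lower by the 1.5-fold rule in B than in naive CD8+ T cells were 7 members in WT, against 12.1% of all genes, and 4 in twi, against 13.1%. None was higher, although 47.4% and 42% of all genes were. The median ratio of the members was 0.543 in WT and 0.646 in twi, and that of all genes 1.44 and 1.34. Ribosomal protein genes took 39.4% of the UMIs of naive CD8+ T cells and 18.7% of those of B cells in WT, and 38.2% and 21.1% in twi. The B over naive ratios were not recomputed without these genes. *Gimap1*, alike by CPM at 0.945 in WT and 0.862 in twi, was thus below the median of all genes. A *Gimap4* UMI was found in 5.05% of WT and 12% of twi B cells, at median depths of 1998 and 2210 UMIs, against 2.14% and 8.8% of myeloid cells. B cells of the libraries also held 17.9 and 47 CPM of the *Cd3* genes, of which the gate allows 1 UMI in a cell, and the part of free T cell RNA in their *Gimap4* was not tested.

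**Figure D3:**
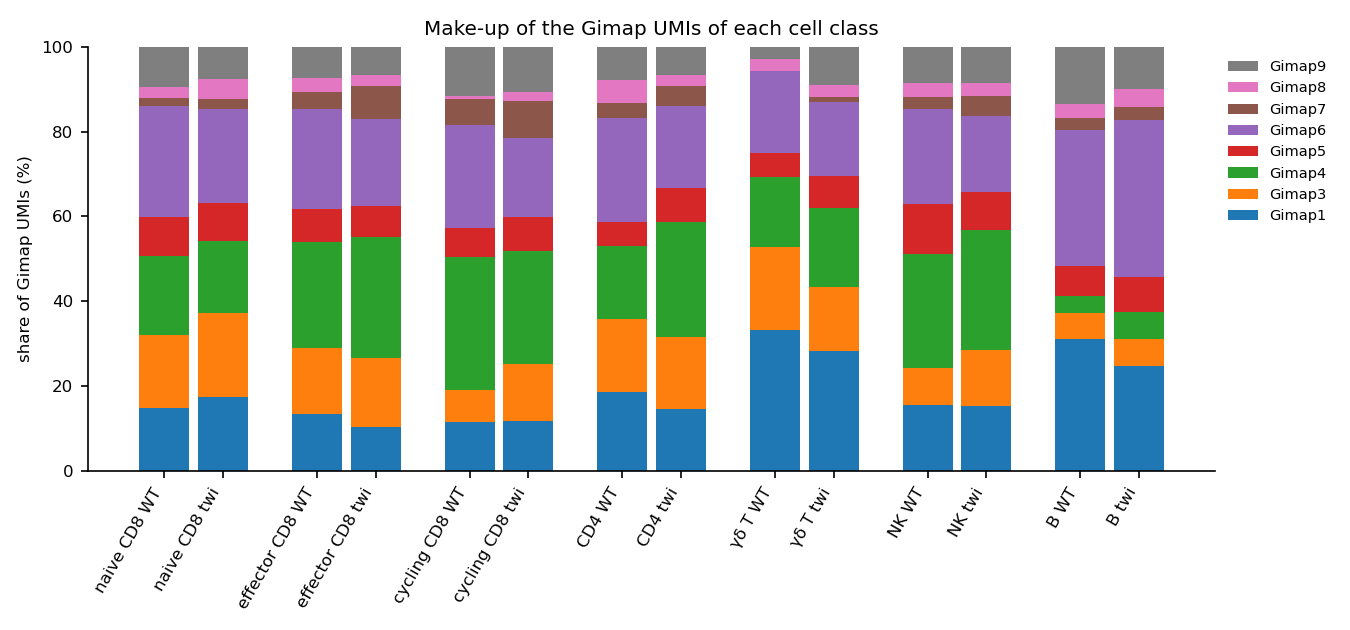
Share (%) of each *Gimap* member among the family's UMIs in 7 cell classes of the WT and twi libraries, 1 bar per class and library. *Gimap1* and *Gimap6* take most of the bar in B cells, *Gimap1* is the largest piece in γδ T cells, and *Gimap4* and *Gimap7* widen from naive to effector CD8+ T cells.

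The B cells were divided further by stage, a division chosen after their values were seen. Early B cells had a UMI of the precursor genes *Vpreb1*, *Vpreb2*, *Igll1*, *Rag1*, *Rag2*, *Dntt* or *Il7r*, cycling B cells had 2 or more cell cycle UMIs, and the rest were MHC II high from 5 UMIs of *H2-Aa*, *H2-Ab1* and *H2-Eb1* or MHC II low below that. Between 3 and 6 such UMIs were found in 23 of 365 WT and 10 of 124 twi cells, near that limit. In WT the family stood at 460 CPM in 163 early, 257 CPM in 27 cycling, 584 CPM in 193 MHC II low and 1433 CPM in 172 MHC II high cells. In twi it stood at 712, 533, 848 and 1679 CPM in 27, 16, 47 and 77 cells. MHC II high cells, the more mature ones, were above early cells by 3.11-fold (2.59 to 3.76) in WT and 2.36-fold (1.70 to 3.34) in twi. By CPM of all UMIs, their levels lay below but near those of the lowest T cell classes. These were γδ T cells (1674 CPM in WT, 1795 CPM in twi) and naive CD8+ T cells (1727 and 1833 CPM). Ribosomal protein genes took 22.1% of the UMIs of MHC II high cells in WT and 23.4% in twi. The shares were 39.4% and 38.2% in naive CD8+ T cells and 23% and 25.4% in γδ T cells. The nearness was not recomputed without these genes.

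All members but *Gimap9* differed between early and MHC II high cells of WT beyond counting error. *Gimap6* was at 134 CPM in early and 515 CPM in MHC II high cells of WT (3.84, 2.75 to 5.46) and at 339 and 601 CPM in twi (1.77, 1.09 to 3.02). *Gimap1* was at 177 and 373 CPM in WT (2.11, 1.54 to 2.92) and 169 and 371 CPM in twi (2.19, 1.12 to 4.77). *Gimap9* was at 101 and 117 CPM in WT (1.16, 0.719 to 1.89) and 84.7 and 124 CPM in twi (1.46, 0.539 to 4.93), so its stage difference was within counting error.

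*Gimap3*, *Gimap4*, *Gimap5*, *Gimap7* and *Gimap8* had more UMIs in MHC II high than in early cells of both libraries. *Gimap3* and *Gimap5* each had 42 UMIs in MHC II high and 5 in early WT cells, a ratio of 7.66 (3.04 to 24.8). In twi *Gimap3* had 27 against 3 UMIs (2.98, 0.918 to 15.4) and *Gimap5* 25 against 3 (2.76, 0.843 to 14.3), with intervals that included 1. *Gimap8* had 19 against 2 UMIs in WT (8.67, 2.09 to 76.7) and 16 against 1 in twi (5.3, 0.824 to 222). *Gimap4* had 29 UMIs against 4 in WT (6.61, 2.32 to 25.9) and 24 against 0 in twi, where 0 UMIs allow up to 50.8 CPM and the MHC II high cells had 135 CPM. *Gimap7* had 22 UMIs against 0 in WT, at 61.2 CPM against a limit of 9.15 CPM. In twi *Gimap7* had 12 UMIs against 0, at 67.4 CPM against a limit of 50.8 CPM. The interval of this twi ratio ran from 0.921 upwards and so included 1. In early WT B cells 2.45% carried *Gimap4*, next to 2.14% of WT myeloid cells, and at 1000 UMIs per cell the shares were 2.6% (0.712 to 6.52%, 4 of 154 cells) and 0.397% (0.01 to 2.19%, 1 of 252 cells). By the 1.5-fold rule 7 of 8 members were higher in MHC II high than in early cells of WT, against 12.4% of all genes, and 5 of the 6 members with enough UMIs in twi, against 18.1%. None was lower, against 27.5% of all genes in WT and 27.7% in twi.

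**Figure D4:**
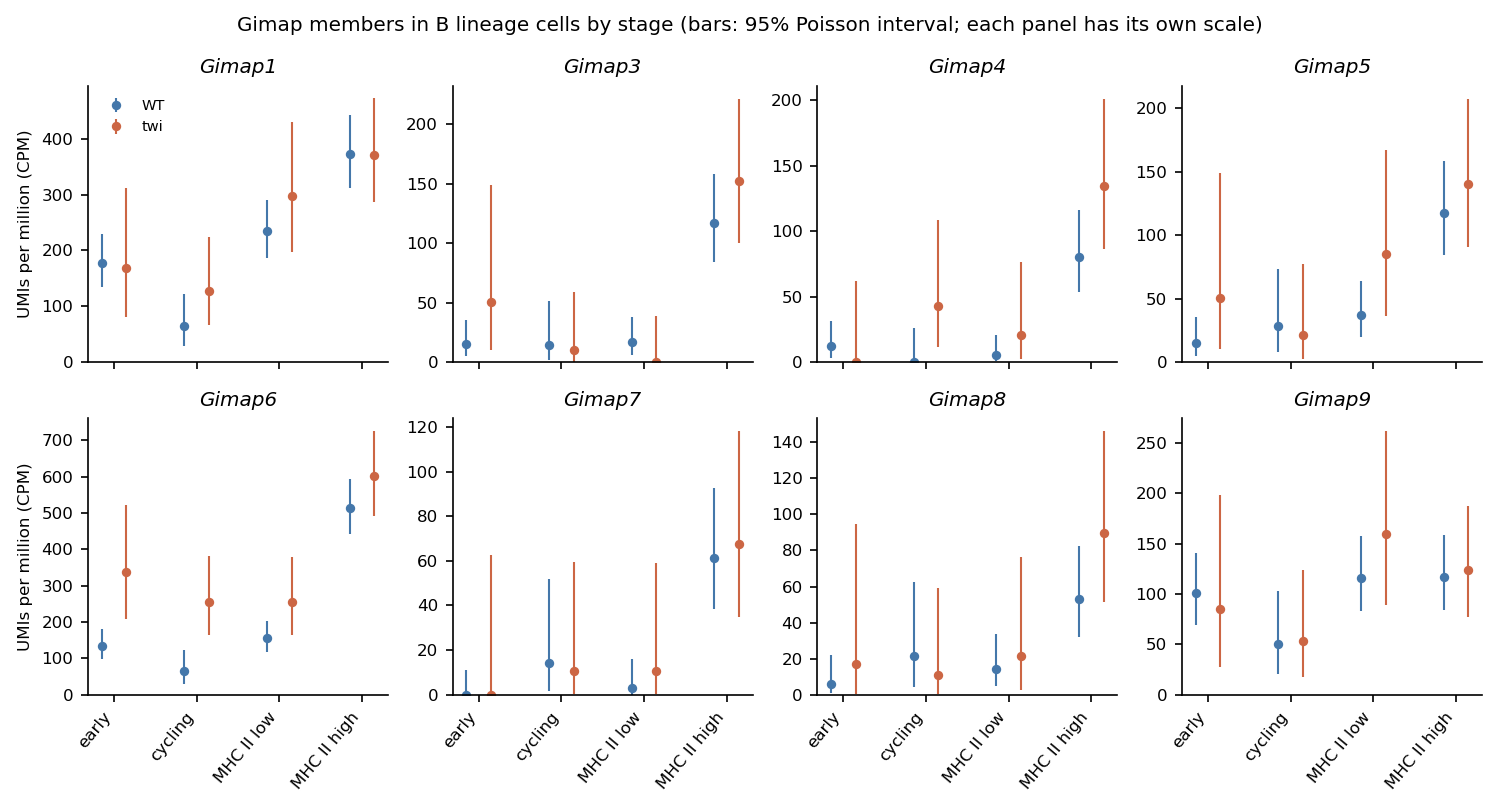
Level of each *Gimap* member (CPM, own scale per panel) in 4 stages of B lineage cells of the WT (blue) and twi (orange) libraries, with 95% Poisson intervals. *Gimap3*, *Gimap4*, *Gimap5*, *Gimap7* and *Gimap8* are highest in MHC II high cells, while *Gimap9* has overlapping intervals in early, MHC II low and MHC II high cells.

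Over all cells the family was higher in the twi library, and most of that difference went with the mixture of cell classes. All-cell levels were 1119 CPM in WT (4185 UMIs) and 2204 CPM in twi (10560 UMIs), a ratio of 1.97 (1.90 to 2.04). With the twi level of each class weighted by the share of UMIs that the class has in WT, the twi level was 1333 CPM and the ratio 1.19. Effector CD8+ T cells gave 38.9% of the family's UMIs in twi and 8.6% in WT, whereas B cells gave 4.46% in twi and 21.6% in WT. In cells, effector CD8+ T cells were 26.3% of the twi library (23.9 to 28.9%) and 2.99% of WT (2.12 to 4.08%), and B cells 13.8% and 43.7%.

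*Gimap7*, *Gimap4* and *Gimap3* had the largest all-cell ratios. *Gimap7* was at 42.5 CPM in WT and 135 CPM in twi, a ratio of 3.18 (2.67 to 3.81) that was 1.53 at the WT class mixture. *Gimap4* was at 210 and 574 CPM (2.73, 2.52 to 2.96) with 1.34 at the WT mixture, and *Gimap3* at 142 and 355 CPM (2.49, 2.26 to 2.75) with 1.31. *Gimap5*, *Gimap8*, *Gimap6* and *Gimap9* had ratios of 1.80, 1.77, 1.64 and 1.63, which were 1.11, 1.30, 1.16 and 1.06 at the WT mixture. *Gimap1*, shared by B and T cells, had the smallest, 1.34 (1.23 to 1.46), which was 1.02 at the WT mixture. All members but *Gimap1* passed 1.5-fold upwards over all cells, 7 of 8, where 11.2% of all genes did, and none was lower, against 15.9%.

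Within the T cell classes the libraries differed less. T cells outside the CD8+, CD4+ and γδ classes stood at 2936 CPM in WT and 3338 CPM in twi, a ratio of 1.14 (1.06 to 1.23). Naive CD8+ T cells had a family ratio of twi over WT of 1.06 (0.919 to 1.23), CD4+ T cells 1.05 (0.92 to 1.2), cycling CD8+ T cells 1.07 (0.895 to 1.28) and γδ T cells 1.07 (0.756 to 1.56). The intervals of these 4 classes included 1. Among CD4+ T cells with Y-linked UMIs and no *Xist* the ratio was 1.30 (1.06 to 1.59), and the sexes of the pooled animals were not given in the sources used here. The 1.5-fold rule found 1 member higher in twi naive cells (*Gimap8*), against 12.4% of all genes, and none lower, against 8.17%. In cycling CD8+ T cells *Gimap3* was higher (158 CPM from 11 UMIs in WT, 303 CPM in twi), against 17.8% of all genes, and none lower, against 18.8%. In γδ T cells *Gimap9* was higher on 1 WT UMI, against 17.6%, and none lower, against 20.7%. In CD4+ T cells 1 was higher (*Gimap4*), against 14.2%, and 1 lower (*Gimap8*, 129 against 68.4 CPM, 0.529, 0.255 to 1.09), against 12.4%.

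Effector CD8+ T cells had 2426 CPM in WT and 2888 CPM in twi, a ratio of 1.19 (1.07 to 1.33). *Gimap7* had the largest ratio, 2.25 (1.35 to 4.08), at 101 CPM in WT and 228 CPM in twi, and *Gimap4* followed at 1.36 (1.09 to 1.70), with 607 and 823 CPM. The other 6 members lay between 0.861 and 1.24 with intervals that included 1. By the 1.5-fold rule only *Gimap7* was higher, 1 of 8, against 21.7% of all genes, and none was lower, against 16.5%. Among interferon-low effector cells the family ratio was 1.11 (0.97 to 1.28) and that of *Gimap7* 2.19 (1.06 to 5.23).

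NK cells went the other way, at 3281 CPM in WT and 2834 CPM in twi, a ratio of 0.864 (0.78 to 0.957). *Gimap5* was at 383 and 254 CPM (0.663, 0.476 to 0.919) and *Gimap6* at 739 and 504 CPM (0.682, 0.54 to 0.859), while *Gimap7* was at 89 and 138 CPM (1.55, 0.878 to 2.81). At 1000 UMIs per cell the family ratio was 0.977 (0.815 to 1.17), an interval that includes both 1 and the reported ratio. By the 1.5-fold rule 1 member was higher (*Gimap7*), against 11.4% of all genes, and 1 lower (*Gimap5*), against 12.9%, and at 2-fold none was either.

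B cells had 771 CPM in WT and 1108 CPM in twi, a ratio of 1.44 (1.28 to 1.61). *Gimap6* was at 249 and 412 CPM (1.65, 1.36 to 2), *Gimap4* at 29.8 and 70.6 CPM (2.36, 1.40 to 3.96) and *Gimap5* at 54.6 and 89.4 CPM (1.64, 1.07 to 2.48). *Gimap1* (1.13, 0.906 to 1.41) and *Gimap9* (1.06, 0.742 to 1.5) had intervals that included 1. By the 1.5-fold rule 6 members were higher, against 9.19% of all genes, and none lower, against 11.8%, and at 2-fold 1 was higher. The stages were mixed differently, with 172 of 555 WT and 77 of 167 twi B cells MHC II high, and among MHC II high cells alone the ratio was 1.17 (1.01 to 1.35). It was 1.55 (1.07 to 2.19) in early, 1.45 (1.11 to 1.89) in MHC II low and 2.07 (1.32 to 3.27) in cycling B cells. Free RNA differed too, since B cells held 1056 CPM of the neutrophil genes *S100a8* and *S100a9* in WT and 289 CPM in twi. The *Cd3* genes of T cells went the other way in B cells, at 17.9 CPM in WT and 47 CPM in twi. The part of free RNA in these ratios was not tested.

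**Figure D5:**
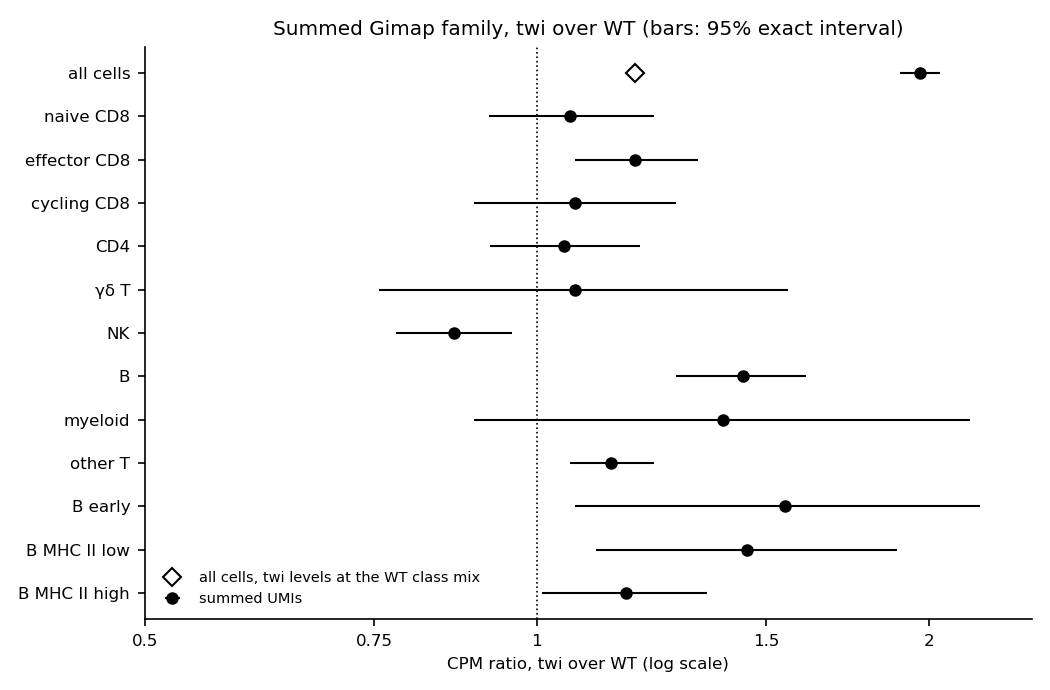
Ratio of the summed *Gimap* level in twi over WT (log axis) over all cells, in each cell class and in 3 B lineage stages, with 95% exact intervals, and the open diamond is the all-cell ratio with twi class levels at the WT class mixture. The all-cell ratio of 1.97 comes down to 1.19 at the WT mixture, NK cells lie below 1, and B cells at 1.44.

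Genes of lymphocyte quiescence and recirculation were set beside the family. The list holds 16 genes, of which 5 set the naive gate and were lower in effector cells by that choice. Of the other 11, 8 were lower and none higher in twi effector than naive cells by the 1.5-fold rule, against 15% and 22.6% of all genes, with a median ratio of 0.426 against 1.04 over all genes. In WT 1 of the 10 with enough UMIs was lower and 1 higher, against 11.5% and 16.6%, with a median of 0.857 against 1.03. *Klf2*, a factor that keeps T cells resting, was at 1651 CPM in naive and 683 CPM in effector cells of twi (0.414, 0.367 to 0.467), and at 1859 and 1725 CPM in WT (0.928, 0.789 to 1.09). *Btg1*, a brake on proliferation, was at 1911 and 1584 CPM in twi (0.829, 0.748 to 0.92) and 1815 and 1402 CPM in WT (0.772, 0.649 to 0.918). *Btg2*, of the same gene family, was at 412 and 528 CPM in twi (1.28, 1.03 to 1.6) and 494 and 532 CPM in WT (1.08, 0.792 to 1.46).

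Of 11 genes of lymphocyte survival and death, 3 of 10 with enough UMIs were higher and none lower in twi, against 22.6% and 15% of all genes, and 2 of 5 were lower and none higher in WT, against 11.5% and 16.6%, with median ratios of 1.28 and 0.826. *Bcl2*, which blocks mitochondrial death, was at 641 CPM in naive and 860 CPM in effector cells of twi (1.34, 1.13 to 1.60) but at 709 and 465 CPM in WT (0.655, 0.485 to 0.879). Of 10 genes of GIMAP partners and autophagy, 2 were lower and none higher in twi, against 15% and 22.6%, and 2 of the 6 with enough UMIs were higher and none lower in WT, against 16.6% and 11.5%. *Gabarapl2*, the partner of Gimap6, was at 160 and 200 CPM in twi (1.25, 0.883 to 1.81) and 127 and 243 CPM in WT (1.91, 1.12 to 3.29). *Gabarap*, with the most UMIs of this list, had ratios of 1.44 (1.03 to 2.07) in twi and 1.78 (1.01 to 3.17) in WT. *Map1lc3b* had 0.858 (0.649 to 1.15) in twi and 1.18 (0.756 to 1.82) in WT. *Lamp1* had 1.37 (0.861 to 2.3) in twi and 1.01 (0.471 to 2.14) in WT.

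Between twi and WT effector cells the quiescence list had 12 of 16 genes lower and none higher, and 7 of 11 lower and none higher without the naive gate genes, against 16.5% and 21.7% of all genes, while 1 of 8 *Gimap* members, *Gimap7*, passed the rule upwards. In that comparison 3 of 10 survival genes were higher and 1 lower, and 2 of 10 partner genes were higher and none lower.

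Across the 14 combinations of class and library with at least 10 cells, the genes whose level most resembled the family sum were ranked among 4975 genes by Pearson correlation of log2(CPM + 10). Of the first 10 genes, 6 were members (*Gimap6*, *Gimap5*, *Gimap9*, *Gimap1*, *Gimap3* and *Gimap8*), which are part of the sum themselves. The others were *Sept1* (r = 0.987) and *Sept6* (r = 0.957), which encode septins, *Il2rg* (r = 0.953), the common cytokine receptor chain, and *Eif3m* (r = 0.947), a translation initiation factor. *Gimap4* (r = 0.915) and *Gimap7* (r = 0.855) stood at ranks 34 and 126. Without the myeloid points, over the other 12, *Sept1* had r = 0.877, *Sept6* 0.639, *Eif3m* 0.501 and *Il2rg* 0.439. *Gimap4*, the most abundant member and itself part of the sum, had 0.984. Points of a library share its depth and free RNA, and these values are descriptions.

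Among the members, over the same 12 points, *Gimap4* went most closely with *Gimap3* (r = 0.93), *Gimap5* (r = 0.93) and *Gimap9* (r = 0.87). *Gimap1* went least with the others, with r between 0.09 for *Gimap7* and 0.69 for *Gimap8*. *Gimap7*, the next gene to *Gimap1* in the cluster, had its highest value with *Gimap4* (r = 0.75).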

How the data were processed

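Single-cell libraries of CD45+ brain cells were analysed, 1 WT and 1 twi. Per barcode and gene, raw counts of UMIs were deposited by the authors (Cell Ranger 2.1.1, mm10, per the submitters' processing notes); free RNA and doublets were not removed, and called cells with mixed markers were set aside. Counts of the 8 members were summed per library and cell class and scaled to CPM. Scripts used Python 3.11.15, numpy 2.4.6, scipy 1.17.1 and pandas 2.3.3, with exact Poisson, conditional and Clopper-Pearson intervals at 95%, tested on simulated counts. Thinning drew 1000 UMIs per cell and left out shallower cells, 106 in WT and 20 in twi. A gene counted as higher or lower from 1.5-fold with a pseudocount of 0.5 UMIs and at least 20 UMIs in both groups together. The text names all members, the 4 most abundant genes of each of 3 lists at most, and the 10 genes most like the family sum. Members and lists were chosen with earlier results of these data known, and the B cell stages and the interferon division after their values were seen. Replicates were absent, so no p-value is given. Some marker genes of the gates are not reported here by name.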

Additional observations from a re-analysis of the deposited data

Results flagged for a closer look

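The family ratio of twi over WT was above 1 in effector CD8+ T cells (1.19) and B cells (1.44) and below 1 in NK cells (0.864), with intervals that excluded 1 in each. *Gimap5* (1.64 in B cells, 0.663 in NK cells) and *Gimap6* (1.65 in B cells, 0.682 in NK cells) also lay on opposite sides of 1. With 1 library per genotype these differences between classes were not tested.

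Barcodes outside the classes also carried the family above the myeloid level of 49 CPM in WT and 68.1 CPM in twi. Barcodes with markers of more than 1 lineage had 663 CPM in WT and 1283 CPM in twi, and barcodes that met no gate had 861 and 1146 CPM. The barcodes with over 15% mitochondrial UMIs, which the report leaves out, had 1093 CPM from 9 UMIs in WT and 1346 CPM from 22 UMIs in twi.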

How the results depend on the processing

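No paired analysis was possible because each genotype had a single library. Of 72 recomputed family ratios, 70 lay on the same side of 1 as reported. The all-cell ratio of twi over WT (1.97) was 2.17 without mitochondrial and ribosomal genes in the totals, 1.8 among barcodes with Y-linked UMIs and no *Xist*, and 1.79 without *Gimap4*. The effector over naive ratio in twi (1.58) was 1.36 without *Gimap4*. The CD4+ T cell ratio of twi over WT (1.05) was 1.3 among Y-linked barcodes, the NK ratio (0.864) 0.977 at 1000 UMIs per cell, and the B cell ratio (1.44) 1.17 among MHC II high cells, an alternative chosen after seeing the data (1.55, 1.45 and 2.07 in early, MHC II low and cycling B cells). At 2-fold, 1 member was higher in WT effector than naive cells (also 1 with at least 50 UMIs), 1 in twi B cells over WT, and 0 were higher or lower in NK cells. Stricter gates gave a *Gimap* UMI in 100% of WT naive, effector and CD4+ T cells. *Gimap3* in effector over naive cells of twi turned to 0.707 among Y-linked barcodes, and *Gimap7* in WT to 0.523 at 1000 UMIs per cell, from 1 and 3 UMIs. The causes were not tested. Few cells limited WT cycling and γδ T cells (8 each).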
